A study of Prunus avium with 27 samples.

Results

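H3K4me3, the trimethylated form of lysine 4 on histone H3, was compared between flower buds of the sweet cherry cultivar Burlat collected on 5 December 2014 and on 21 October 2014, 45 days earlier. The labels call the buds of both dates dormant. The December group held 2 libraries (replicates 2 and 3) and the October group held 2 libraries (replicates 2 and 3), so 4 of the 27 samples of the series carry the comparison. The trees stood in an orchard and carried no genetic change or treatment named in the labels. Each library was made by chromatin immunoprecipitation from 300 to 500 mg of frozen whole buds with an antibody against trimethylated H3K4 and was sequenced in paired reads of 75 bp. RNA libraries of the same dates, 3 from December and 3 from October, give a second readout that the H3K4me3 comparison did not use, and the 6 H3 and 6 input libraries are not analysed here. The labels do not say that replicates came from separate trees, so every p-value measures the spread between these libraries, which may be technical.

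H3K4me3 is laid down by methyltransferases of the Trithorax family and is found over the first nucleosomes of transcribed genes in plants. Flower buds of fruit trees form in summer, stop growing in autumn and pass the winter dormant while they accumulate chilling, and a change of this mark at single genes has been described during that period in related species such as peach. The buds hold scales, leaf primordia and flower primordia together. In such bulk tissue, fewer cells with the mark and less of the mark per cell cannot be told apart. The gene identifiers of the tables matched no entry of the sweet cherry gene table used for names. Marker genes of the labelled tissue could therefore not be checked. The prefix was PRUPE for 28087 gene names and EPlPPEG for 1362. Whether these gene models and scaffolds are those of sweet cherry or of another species was not tested. The part of mapping between species in the signal was not tested either. Regions are given by scaffold and position in the coordinates of the deposited tables, whose genome build the sources used here do not give.

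The tables list 25635 regions, nearly all of which run from 500 bp before the start of a gene to 1500 bp into it. A region was tested when its deposited signal reached 10 in at least 2 of the 4 libraries, which kept 15220 regions. The signal of each library was scaled to the same sum, and all signal values below are on that scale. All values of a library were whole multiples of 1 step, and the numbers of steps are called recovered reads. In the 4 libraries 25.9% to 32.8% of the listed regions stood at 1 step, but only 155 to 172 regions stood at 2 steps. The numbers of steps thus have a floor and may not be plain read counts. The December libraries held 19724516 and 28126160 recovered reads, and the October libraries 14898960 and 18279008. Across the tested regions, the log2 signal of the December libraries correlated with each other at r = 0.960 and that of the October libraries at r = 0.942. October replicate 3 was as close to December replicate 3 (r = 0.942) as to its own partner, while October replicate 2 correlated with the December libraries at 0.901 and 0.886. These correlations are across regions, which are not independent replicates.

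A total of 3388 of the 15220 tested regions (22.3%) differed between December and October at an adjusted p under 0.05 (limma, Benjamini-Hochberg). The mark was higher in December at 1494 regions (9.82%), called gained below, and lower in December at 1894 regions (12.4%), called lost. Changes of 2-fold or more numbered 372 losses (2.44% of the tested regions) and 52 gains (0.342%). Of the fits that left out 1 library, only the fit without October replicate 3 gave similar numbers of both. It leaves October replicate 2 alone, with 32.8% of the listed regions at the lowest value, against 25.9% in October replicate 3. The reason for the difference was not tested. The median gain was 1.25-fold and the median loss 1.48-fold, and 87.5% of the gained regions against 51.8% of the lost regions changed by less than 1.5-fold. Over all tested regions the median log2 change was -0.002.

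All 3388 called regions kept the libraries of the 2 dates apart, against 64.2% of all tested regions (31.4% with both December libraries above and 32.8% with both below). With 2 libraries against 2, the smallest p an exact two-sided permutation test can give for a single region is 0.333, so calls rest on the spread shared across regions. The balance of the directions depends on how the libraries are scaled. On the deposited scale the median change is 0.15 on the log2 scale, 5473 regions (36%) were called, 29% of the tested regions as gains and 6.98% as losses. There 80.6% of the calls were gains, against 44.1% with equal sums. Changes below are given relative to equal sums, under which aligning the library medians gave a similar split of 1604 gains and 1853 losses. Of the 3388 calls, 2549 kept their call and direction on the deposited scale, and 0 were called in the opposite direction.

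Single libraries moved the number of calls. Without December replicate 2, 1471 regions were called, of which 458 were gains and 1013 losses, and without December replicate 3, 2104 were called, of which 633 were gains and 1471 losses. Gains of 2-fold or more numbered 23 without December replicate 2, 25 without December replicate 3 and 308 without October replicate 3, and losses of 2-fold or more numbered 242, 481 and 335 in the same 3 fits. A core of 650 regions, 309 gained and 341 lost, was called in the same direction under every alternative run, including each fit that left out 1 library, and 177 of the 650 changed by 2-fold or more (16 gained and 161 lost).

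Losses lay mostly at weakly marked regions and gains mostly at strongly marked ones. The tested regions were split into 4 classes of equal size by mean signal over the 4 libraries. In the class with the lowest signal (up to 80.5), 65 regions (1.71%) gained the mark in December and 455 (12.0%) lost it, with a median log2 change of -0.34. In the next class, 269 (7.07%) gained and 768 (20.2%) lost. In the class above the median, 518 (13.6%) gained and 402 (10.6%) lost. In the class with the highest signal (from 269.6), 642 (16.9%) gained and 269 (7.07%) lost, with a median log2 change of 0.06. The tilt was not limited to called regions. From the lowest to the highest class, 29.3%, 44.1%, 59.7% and 65.9% of all regions were higher in December. The December libraries also held more recovered reads than the October ones. The part of depth or of enrichment in the tilt was not tested.

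**Figure D1:**
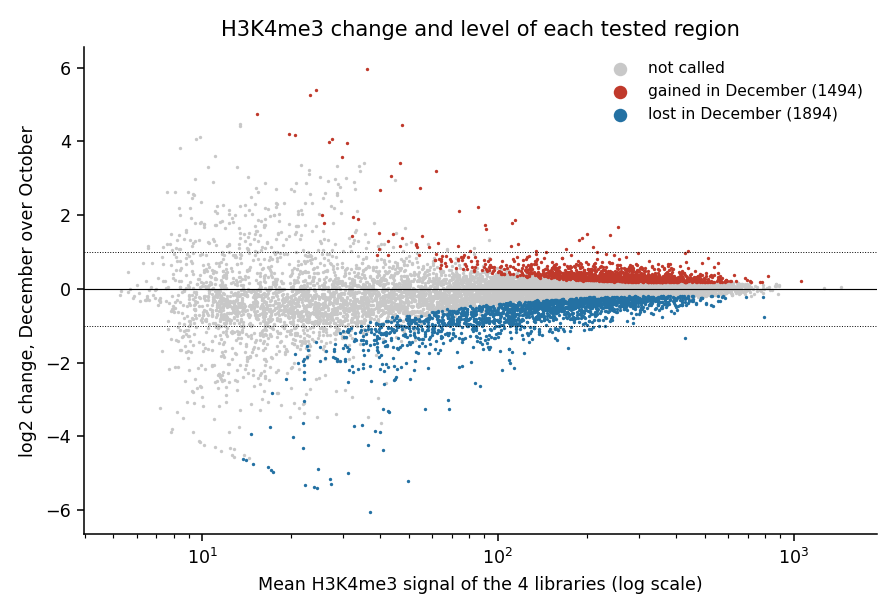
Each point is a tested region, with the mean H3K4me3 signal of the 4 libraries on a log scale across and the log2 change of December over October upwards; colours mark regions gained, lost and not called. Lost regions spread further from 0 than gained ones and lie further to the left, at lower signal.

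The size of the changes followed the level too. Of the 372 losses of 2-fold or more, 269 lay in the class of lowest signal and 96 in the next, and of the 52 gains of that size 36 lay in the lowest. The spread between libraries was also widest there: the median within-date SD of the log2 signal in the lowest class was 0.24 in December and 0.25 in October, against 0.072 and 0.073 over all tested regions. The part of this spread in the sizes was not tested. With a filter at a signal of 50, 262 losses and 44 gains of 2-fold or more were called. Gained regions had a median signal of 282 in December and 224 in October, and lost regions 114 in December and 170 in October, against 181 and 182 over all tested regions.

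Calls by transcript level ran the same way as calls by signal. RNA was measured in TPM, a length-corrected unit whose total is the same in every library and which keeps no depth. Among 13872 regions that belong to a single gene, split into 4 classes of equal size by mean RNA over the 9 RNA libraries, genes in the lowest class (up to 7.76 TPM) had gained regions in 2.31% of cases and lost regions in 17.1%. In the highest class (from 57.5 TPM) these shares were 17.4% and 7.50%. The median gene with a gained region stood at 49.4 TPM and the median gene with a lost region at 14.3 TPM, against 25.6 TPM over the tested regions. At 925 genes whose RNA stayed under 1 TPM in every library, 4 regions gained and 63 lost the mark (0.432% and 6.81%), with a median log2 change of -0.40. Signal rose with RNA, with a median December signal of 37.8 in the lowest class of RNA and 254 in the highest. The part of signal level, depth or enrichment in these shares was not tested.

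**Figure D2:**
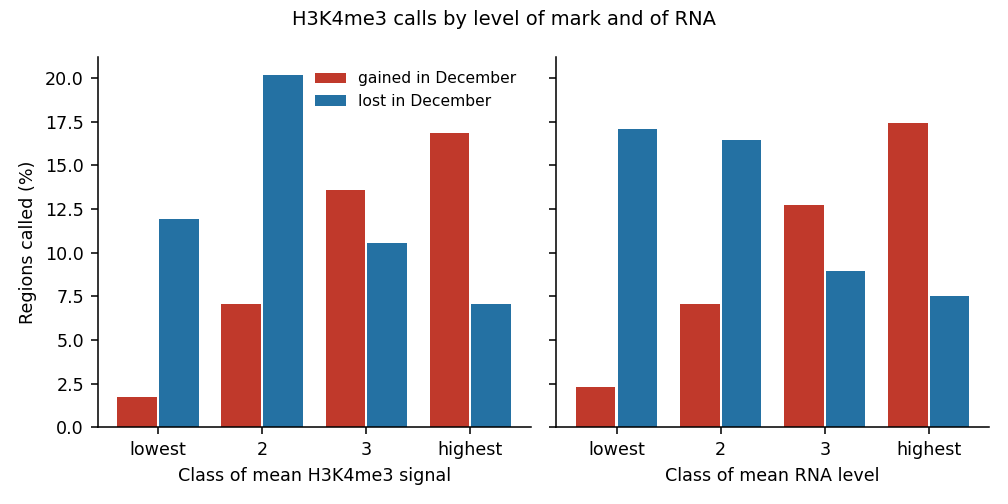
The percentage of tested regions gained and lost in December is shown for 4 classes of equal size by mean H3K4me3 signal (4 libraries) and by mean RNA (9 libraries). The gained share climbs from 1.71% to 16.9% over the classes of signal and from 2.31% to 17.4% over the classes of RNA, while the lost share is highest in the class just above the lowest for signal and in the lowest class for RNA.

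The changes were spread over the genome. On the 8 largest scaffolds, gained regions made up 8.93% to 11.4% and lost regions 11.0% to 13.9% of the tested regions. Regions longer than the single-gene window, most of which join the starts of 2 neighbouring genes, were called about as often: of 1344 such regions, 122 (9.08%) gained and 161 (12.0%) lost the mark.

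The largest gains among well-marked regions, ranked by fold among called regions with a signal at the higher date of at least the median of tested regions, ran between 2.11-fold and 3.68-fold, and each was called under all 17 alternatives run. The first, on scaffold 1 at 46286378 to 46288378 at the start of the gene PRUPE_ppa013163mg, had a signal of 193 and 166 in December, against 36.6 and 62.8 in October. Both December libraries stood well above both October libraries (log2 change 1.88, SE 0.23, adjusted p = 0.00212, limma). RNA of that gene rose as well, to 51.7 ± 5.61 TPM in December, against 13.0 ± 0.285 TPM in October (SD, n = 3 each; adjusted p = 4.05e-07, limma).

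A region on scaffold 1 at 7989666 to 7991666, at the start of PRUPE_ppa008651mg, had a signal of 375 and 330 in December, against 125 and 127 in October (log2 change 1.47, SE 0.08, adjusted p = 0.000239, limma). Its gene was among the most abundant transcripts of those named here, with 959 ± 82.4 TPM in December and 120 ± 7.99 TPM in October (SD, n = 3 each; log2 change 2.99, adjusted p = 3.62e-09, limma). On scaffold 5 at 5481525 to 5483525 the signal was 274 and 262 in December, against 119 and 94.0 in October (log2 change 1.33, adjusted p = 0.000795, limma). The gene there had 76.3 ± 6.14 TPM in December and 3.10 ± 0.638 TPM in October, the largest RNA rise among the 8 leading gains (log2 change 4.24, SD over n = 3 each, adjusted p = 5.22e-08, limma).

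A smaller RNA change went with a mark change of like size elsewhere. On scaffold 2 at 3080777 to 3082777 the signal was 282 and 307 in December, against 119 and 93.1 in October (log2 change 1.48, adjusted p = 0.000689, limma), and RNA was 246 ± 6.96 TPM in December and 181 ± 8.25 TPM in October (SD, n = 3 each; log2 change 0.44, adjusted p = 0.000247, limma). On scaffold 8 at 21437832 to 21439832 the signal was 287 and 267 in December, against 95.3 and 119 in October, with RNA at 617 ± 52.3 TPM in December and 381 ± 9.06 TPM in October (SD, n = 3 each). The other leading single-gene gains lay on scaffold 1 at 35444953 to 35446953, with 297 and 280 in December against 121 and 141 in October, and on scaffold 5 at 13876211 to 13878211, with 219 and 242 in December against 94.3 and 124 in October. RNA rose at each of the 7 single-gene regions among the 8 gains. Over all 12705 single-gene regions with mark and RNA tested, RNA was called higher at 31.5%.

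The remaining leading gain was a region of 3.85 kb on scaffold 1 at 3576322 to 3580174 that covers the starts of 2 genes. Its signal was 420 and 358 in December, against 116 and 124 in October (log2 change 1.68, SE 0.09, adjusted p = 0.000239, limma). RNA rose at both genes, to 419 ± 26.8 TPM in December against 56.5 ± 3.15 TPM in October at the first, and to 45.7 ± 1.04 TPM in December against 25.1 ± 2.14 TPM in October at the second (SD, n = 3 each). The gained region with the highest mean signal among gains of 2-fold or more lay on scaffold 1 at 36195480 to 36198274 and also covers 2 genes. It had 595 and 587 in December, against 296 and 283 in October, and the more abundant of its genes had 81.1 ± 4.36 TPM in December and 8.98 ± 0.374 TPM in October (SD, n = 3 each).

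The largest losses among well-marked regions ran between 2.22-fold and 3.04-fold, and each of the 8 was called under all 17 alternatives run. The first covers positions 22194226 to 22196226 of scaffold 6, the start of PRUPE_ppa010426mg, and had 93.8 and 76.6 in December, against 262 and 258 in October (log2 change -1.61, SE 0.11, adjusted p = 0.000647, limma). The October libraries nearly coincided there and both lay far above the December ones. RNA of the gene fell to 5.56 ± 0.419 TPM in December, against 149.5 ± 1.76 TPM in October (SD, n = 3 each; log2 change -4.52, adjusted p = 3.9e-09, limma). The mark was thus reduced at this gene start and stayed well above the floor of the tables.

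On scaffold 5 at 16361961 to 16363961, at the start of PRUPE_ppa001102mg, the signal was 89.8 and 85.1 in December, against 195 and 253 in October (log2 change -1.34, adjusted p = 0.00108, limma). RNA there was 15.3 ± 1.74 TPM in December and 69.9 ± 1.86 TPM in October (SD, n = 3 each; log2 change -2.13). The region on scaffold 1 at 13455989 to 13457989 lost the mark without a called RNA change. Its signal was 76.3 and 99.1 in December, against 222 and 236 in October (log2 change -1.39, SE 0.13, adjusted p = 0.000919, limma), while RNA was 5.96 ± 0.662 TPM in December and 7.71 ± 1.20 TPM in October (SD, n = 3 each; log2 change -0.32, adjusted p = 0.126, limma).

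A lost region of 3.72 kb on scaffold 2 at 25328373 to 25332092 covers the starts of 2 genes and had the highest mean signal of the losses of 2-fold or more, with 263 and 228 in December, against 610 and 621 in October (log2 change -1.33, SE 0.07, adjusted p = 0.000239, limma). The more abundant gene had 26.4 ± 5.38 TPM in December and 25.6 ± 1.20 TPM in October (SD, n = 3 each; adjusted p = 0.911, limma). The other gene fell to 0.173 ± 0.167 TPM in December, against 4.98 ± 0.601 TPM in October (SD, n = 3 each; adjusted p = 1.15e-05, limma). The region alone does not say at which gene start the mark changed.

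The other leading losses were of similar depth. On scaffold 1 the regions at 33715733 to 33717733 and at 1409075 to 1411075 had 73.3 and 93.3, and 93.5 and 91.0, in December, against 202 and 194, and 216 and 197, in October. On scaffold 2 at 20327375 to 20329375 the signal was 81.2 and 83.1 in December, against 195 and 193 in October, and on scaffold 7 at 15552338 to 15554338 it was 95.1 and 91.1 in December, against 232 and 193 in October. RNA fell at each of these 4 genes, with log2 changes between -1.71 and -0.98, against 31.2% called lower over the 12705 single-gene regions with both tested. Among losses of 2-fold or more with a high mean signal, the region on scaffold 8 at 14645695 to 14647695 had 147 and 161 in December, against 312 and 304 in October, with RNA at 6.78 ± 1.75 TPM in December and 52.2 ± 2.45 TPM in October (SD, n = 3 each). The region on scaffold 5 at 14205485 to 14207485 had 151 and 137 in December, against 321 and 267 in October, with RNA at 42.3 ± 4.87 TPM in December and 157 ± 12.2 TPM in October (SD, n = 3 each).

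**Figure D3:**
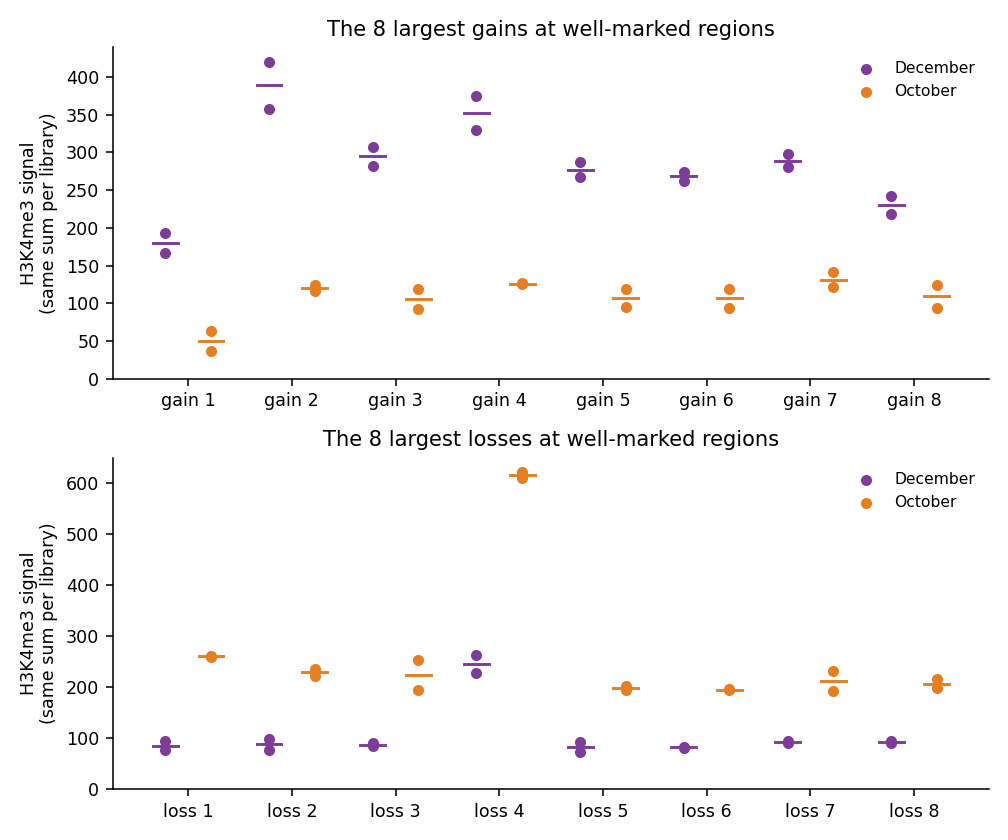
The H3K4me3 signal of each library, scaled to the same sum, is shown at the 8 largest gains and the 8 largest losses among well-marked regions, numbered by fold; points are libraries and short lines their means, with December left of October. In each of the 16 regions both December libraries lie on one side of both October libraries, and the losses end between 73.3 and 99.1 except for the 3.72 kb region at 263 and 228.

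The January libraries, collected on 27 January 2015 from buds labelled non-dormant, were not part of the comparison, and their values share no test with it. In all 8 leading gains both January libraries lay above both October libraries, with for example 566 and 549 on scaffold 1 at 7989666 and 234 and 223 on scaffold 1 at 46286378. In all 8 leading losses both January libraries lay below both October libraries, with 82.3 and 110 on scaffold 6 at 22194226 and 232 and 230 on scaffold 2 at 25328373. These regions were picked for their difference from the October libraries, so this is a description.

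Few regions passed between no detectable signal and a clear signal. At 5 regions both October libraries stood at the lowest value of their table and both December libraries had a deposited signal of at least 20, and at 8 regions the December libraries stood at the lowest value and both October libraries had at least 20. Of these, 4 gains and 7 losses were called. The lowest value is a minimum that 31.6% and 27.6% of all listed regions share in the December libraries, and 32.8% and 25.9% in the October libraries, so it marks the floor of the tables and not a counted absence. No fold is given against it, and a log2 change there depends on the pseudocount.

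The clearest gain of this kind lay on scaffold 4 at 9600270 to 9602270, with 69.2 and 74.6 in December, against 0.197 and 0.160 in October, the floor (adjusted p = 0.00381, limma). Its gene had 60.1 ± 7.40 TPM in December and 2.20 ± 0.225 TPM in October (SD, n = 3 each; log2 change 4.25, adjusted p = 3.93e-07, limma). The call was lost without either December library and with a filter at a signal of 50, with an adjusted p of up to 0.229. On scaffold 5 at 10678180 to 10680180 the signal was 51.1 and 45.6 in December, against 0.197 and 0.160 in October, while the gene's RNA stayed low, at 0.684 ± 0.296 TPM in December and 0.0755 ± 0.131 TPM in October (SD, n = 3 each, not tested). On scaffold 2 at 16989531 to 16991531 the signal was 33.4 and 58.6 in December, against the same October values, with RNA at 15.4 ± 3.18 TPM in December and 6.72 ± 1.86 TPM in October (SD, n = 3 each). These calls too were lost without either December library.

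A further region of this kind went against the RNA of its gene. On scaffold 8 at 16181627 to 16183627 the signal was 20.3 and 18.5 in December and at the floor in October, and this difference was not called (adjusted p = 0.0924, limma), while RNA fell to 148 ± 11.9 TPM in December, against 259 ± 27.3 TPM in October (SD, n = 3 each). The remaining gain, on scaffold 5 at 5033845 to 5035845, had 27.9 and 33.1 in December, against 0.197 and 0.160 in October (adjusted p = 0.0329, limma), with RNA at 17.6 ± 1.00 TPM in December and 2.48 ± 1.57 TPM in October (SD, n = 3 each). Its call was lost in 5 of 16 alternatives, namely without either December library, without a filter on low signal, with a pseudocount of 0.1 and with TMM scaling of the recovered reads.

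Among the losses to the floor, the region on scaffold 5 at 13017001 to 13019001 had 0.148 and 0.104 in December, against 80.0 and 67.9 in October (adjusted p = 0.00375, limma). RNA of its gene was 5.78 ± 0.853 TPM in December and 37.3 ± 4.12 TPM in October (SD, n = 3 each; log2 change -2.50), so transcripts were measured where the mark stood at the floor. The call was lost without October replicate 2 and with a filter at a signal of 50. The other 7 losses had between 23.2 and 64.2 in the October libraries, on scaffold 6 at 23204389, on scaffold 7 at 19037484 and 13576750, on scaffold 4 at 6603212, on scaffold 3 at 5164047, on scaffold 8 at 16675218 and on scaffold 1 at 34961607, and the last of these was not called (adjusted p = 0.0512, limma). The 6 called ones lost their call without October replicate 2 and also without October replicate 3, and with all 6 libraries on the deposited scale. Of the 8 genes, 6 had RNA that could be tested, and all 6 fell. Over all 12705 single-gene regions with mark and RNA tested, RNA was called lower at 31.2%.

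The gene starts with the largest joint change of mark and RNA included regions near the floor. Gains at 7012836 to 7014836 on scaffold 4 had 87.1 and 89.6 in December, against 0.197 and 12.8 in October (adjusted p = 0.0164, limma), with RNA at 29.2 ± 4.59 TPM in December and 2.16 ± 0.584 TPM in October (SD, n = 3 each). On scaffold 6 at 1766794 to 1768794 the signal was 53.7 and 45.8 in December, against 0.197 and 7.53 in October (adjusted p = 0.0226, limma), with RNA at 57.3 ± 7.33 TPM in December and 4.61 ± 0.672 TPM in October (SD, n = 3 each). Both calls were lost without either December library, with no filter on low signal and in both count tests on recovered reads.

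The losses of this kind were steadier in 1 case. On scaffold 3 at 18157035 to 18159035 the signal was 0.148 and 5.00 in December, against 100.4 and 93.4 in October (adjusted p = 0.00437, limma), with RNA at 1.29 ± 0.258 TPM in December and 20.4 ± 1.55 TPM in October (SD, n = 3 each; log2 change -3.22), and the call held under all 17 alternatives. On scaffold 1 at 7495141 to 7497141 the signal was 0.148 and 1.04 in December, against 56.0 and 51.1 in October (adjusted p = 0.00715, limma), with RNA at 6.23 ± 1.14 TPM in December and 65.1 ± 4.37 TPM in October (SD, n = 3 each), and the call was lost without October replicate 2. On scaffold 5 at 15784179 to 15786179 the signal was 0.148 and 8.33 in December, against 40.1 and 39.1 in October (adjusted p = 0.0400, limma), a call that 10 of 16 alternatives did not keep, among them the fits without October replicate 2 and without December replicate 2.

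Changes of the mark went mostly with changes of RNA in the same direction. RNA differed between December and October at 11117 of 18384 tested genes (60.5%), with 5311 higher (28.9%) and 5806 lower (31.6%) in December (limma, 9 libraries). For 12705 single-gene regions both assays were tested. Of the 1365 gained regions among them, 976 (71.5%) had RNA called higher in December, 74 (5.42%) lower and 315 uncalled, against 31.5% higher and 31.2% lower over all 12705. Of the 1630 lost regions, 1240 (76.1%) had RNA called lower in December, 37 (2.27%) higher and 353 uncalled. Read the other way, 24.4% of the 4003 genes with higher RNA gained the mark and 31.2% of the 3970 genes with lower RNA lost it. Most genes with a called RNA change thus had no called change of the mark, which was measured in 2 libraries a date against 3 for RNA. Called or not, the mark was higher in December at 80.3% of the genes with higher RNA and at 23.8% of those with lower RNA. Over all tested regions this share was 49.7%.

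Same-direction shares stayed above those in the opposite direction under each alternative run for both assays, but the counts moved with single libraries and with scaling. Genes higher in both assays numbered 317 without December replicate 2 and 458 without December replicate 3, and genes lower in both numbered 721 without December replicate 2. On the deposited scale, 2204 genes were higher in both, 754 were lower in both and 466 were called in opposite directions, against 111 with equal sums, and without December replicate 2 and replicate 3 the last count was 34 and 49.

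**Figure D4:**
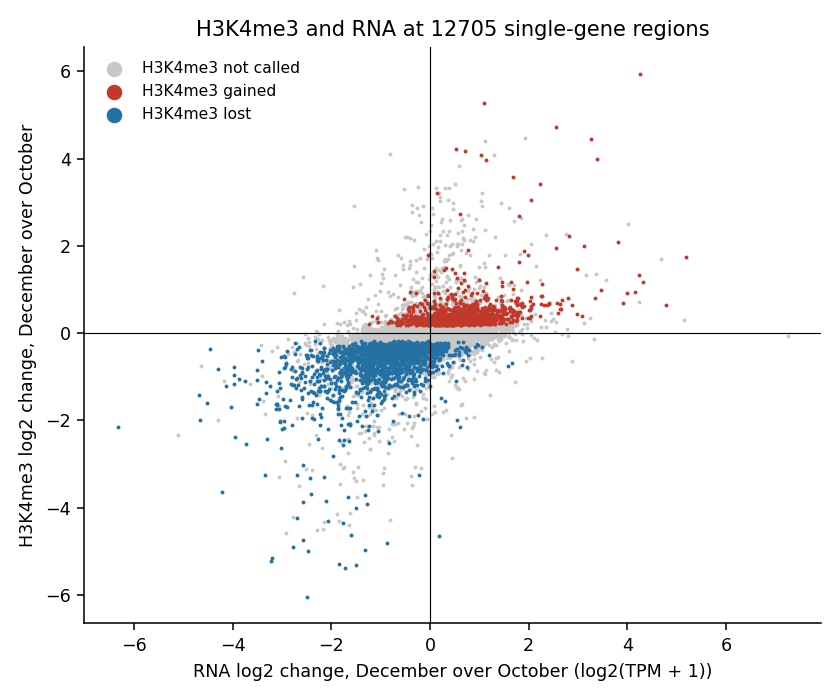
Each point is a single-gene region tested in both assays (n = 12705), with the RNA log2 change of December over October across and the H3K4me3 log2 change upwards; colours mark H3K4me3 calls. Gained regions lie mostly to the upper right (976 of 1365 with RNA called higher) and lost regions mostly to the lower left (1240 of 1630 with RNA called lower).

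The share of regions called followed the size of the RNA change. Where RNA was more than 8-fold lower in December (56 genes), 42 regions (75.0%) lost the mark and 0 gained it, with a median log2 change of -1.43. Where RNA was 4-fold to 8-fold lower the lost share was 63.3%, and where it was 2-fold to 4-fold lower it was 49.3%. Genes with RNA log2 changes within 0.5 either way had 8.90% gained and 5.97% lost. Where RNA was 2-fold to 4-fold higher, 37.0% of 657 regions gained the mark, and where it was at least 8-fold higher 15 of 26 (57.7%) gained it and 0 lost it, with a median log2 change of 1.09.

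**Figure D5:**
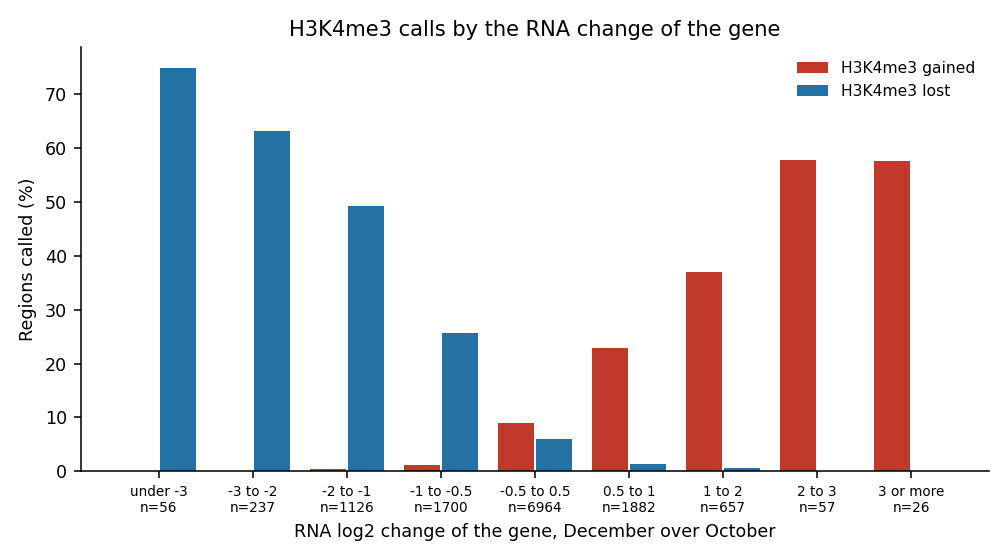
The percentage of single-gene regions gained and lost in December is shown by class of the RNA log2 change of the gene, December over October, with the number of regions in each class under it. The lost share is 75.0% in the class with RNA more than 8-fold lower and 0% in the classes with RNA at least 4-fold higher, and the gained share is 0% and at least 57.7% in the same classes.

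Mark changes were smaller than RNA changes. Among genes called higher in both assays the median log2 change was 0.33 for the mark and 0.73 for RNA, and among genes called lower in both it was -0.60 for the mark and -1.15 for RNA. Both scales have a pseudocount of 1 but different units and floors, so these sizes are set side by side only. Across the 12705 regions the changes of the 2 assays correlated at Pearson r = 0.537 and Spearman rho = 0.586, and within the 4 classes of signal Pearson r was 0.545, 0.668, 0.621 and 0.585 from the lowest to the highest. These are correlations across genes, which are not independent replicates.

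The same direction held at each level of signal. Among genes with lower RNA in December, 28.6%, 45.0%, 29.7% and 18.6% of regions lost the mark in the classes of signal from the lowest to the highest. Among genes with higher RNA, 9.22%, 18.1%, 27.0% and 33.5% gained it. Large RNA changes without a called change of the mark occurred as well. An uncalled region was found at 14 of the 56 genes with RNA more than 8-fold lower. The same held for 11 of the 26 with RNA at least 8-fold higher. Called or not, the mark was lower in December at all 56 of the former. It was higher at 24 and lower at 2 of the 26 latter. Of the 49 gains of 2-fold or more with RNA tested, 43 had higher RNA and 0 lower. Of the 321 losses of that size 282 had lower RNA and 3 higher. Over all 12705 regions RNA was called higher at 31.5% and lower at 31.2%.

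Regions that moved against their gene's RNA were few. A change of 2-fold or more was reached by 0 of the 74 gains and 3 of the 37 losses. With RNA in the same direction it was reached by 43 of 976 gains and 282 of 1240 losses. Ranked by the product of the changes in both assays, the first gain with lower RNA, at 10687167 to 10689167 of scaffold 3, had 261 and 271 in December, against 194 and 212 in October (log2 change 0.39, SE 0.07, adjusted p = 0.00769, limma). Its RNA fell to 17.0 ± 2.42 TPM in December, against 39.5 ± 5.46 TPM in October (SD, n = 3 each; log2 change -1.17, adjusted p = 0.000147, limma). The mark change was under 1.5-fold and was called under all 17 alternatives. On scaffold 1 at 32570673 to 32572673 the signal was 170 and 184 in December, against 96.5 and 87.6 in October (log2 change 0.94, adjusted p = 0.00155, limma), with RNA at 27.8 ± 0.324 TPM in December and 37.6 ± 6.74 TPM in October (SD, n = 3 each; adjusted p = 0.0369, limma). Another gain, on scaffold 2 at 22691872 to 22693872, had 74.2 and 80.4 in December, against 38.1 and 51.9 in October, and RNA of 20.5 ± 2.90 TPM in December and 29.8 ± 4.99 TPM in October (SD, n = 3 each), and 5 of 17 alternatives did not keep its call, among them the fits without October replicate 2 and without either December library.

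By the same ranking, the opposite case, a lost mark with higher RNA, was led by the region on scaffold 1 at 36415658 to 36417658, with 8.46 and 27.6 in December, against 68.2 and 77.4 in October (log2 change -2.16, SE 0.48, adjusted p = 0.0168, limma). Its gene had 140 ± 19.4 TPM in December and 91.9 ± 9.98 TPM in October (SD, n = 3 each; adjusted p = 0.00369, limma). On scaffold 7 at 17991543 to 17993543 the signal was 47.2 and 53.0 in December, against 82.1 and 88.4 in October (adjusted p = 0.0165, limma), while RNA rose to 173 ± 22.2 TPM in December, against 56.7 ± 2.63 TPM in October (SD, n = 3 each; log2 change 1.59). On scaffold 5 at 707624 to 709624 the signal was 96.0 and 98.9 in December, against 160 and 156 in October (adjusted p = 0.00324, limma), while RNA rose to 13.0 ± 0.479 TPM in December, against 3.43 ± 0.396 TPM in October (SD, n = 3 each; log2 change 1.67). The call on scaffold 7 was lost without December replicate 2, those on scaffolds 7 and 5 were lost with all 6 libraries on the deposited scale, and that on scaffold 1 did not hold when all listed regions were tested.

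The H3K4me3 tables give a gene identifier for 671 regions, of which 480 were tested. Of these, 27 gained (5.62%) and 144 lost the mark (30.0%), with a median log2 change of -1.16, and 26 of the gains and 129 of the losses were of 2-fold or more. Among the 14740 tested regions without an identifier 9.95% gained and 11.9% lost, and 26 of the gains and 243 of the losses were of 2-fold or more. Regions with an identifier were weakly marked, with a median signal of 13.0 in December and 27.2 in October, against 186 and 187 in the others. Their median within-date SD of the log2 signal was 0.58 in December and 0.36 in October, against 0.069 and 0.071 in the others. The part of level and spread in these counts was not tested. The sources used here do not say how the 671 regions were chosen, and if they were chosen on these libraries their counts are not independent of the comparison. The gains described above on scaffold 4 at 9600270, scaffold 5 at 10678180 and scaffold 2 at 16989531 carry an identifier. So do the losses on scaffold 5 at 13017001, scaffold 3 at 18157035 and scaffold 1 at 7495141. The same limit holds for them.

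Called regions occasionally stood in rows along a scaffold. Runs of at least 3 neighbouring tested regions called in one direction numbered 23 for gains and 53 for losses. Over all tested regions 9.82% were gained and 12.4% lost. How many runs these shares alone would give was not tested, so the runs are a description. The longest run of losses held 5 regions over 26.4 kb on scaffold 2 at 20310593 to 20337029, with log2 changes between -1.31 and -0.38. The longest run of gains held 5 regions over 160 kb on scaffold 5 at 2787902 to 2947697, with log2 changes between 0.35 and 0.99, and RNA was called higher at 4 of the 5 genes. A run of 4 gains over 27.2 kb on scaffold 4 at 9577414 to 9604605 held the floor-to-signal gain described above, and RNA rose at all 4 genes. The share with RNA called higher was 31.5% over all single-gene regions tested in both assays. In both runs of gains 3 members lost their call without December replicate 3, while the run of losses kept every call when any 1 library was left out. The last member of the run on scaffold 4, at 9602605 to 9604605, had 94.8 and 109 in December, against 37.5 and 52.4 in October, with RNA at 71.1 ± 3.49 TPM in December and 2.65 ± 0.799 TPM in October (SD, n = 3 each; log2 change 4.32).

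Among regions longer than the single-gene window, a loss on scaffold 4 at 2799141 to 2802600 reached the floor in 1 of the December libraries, with 0.148 and 1.46 in December, against 43.8 and 53.3 in October (adjusted p = 0.00941, limma). One of its 2 genes was listed at 0 TPM in all libraries of both dates, and the other had 1.66 ± 0.427 TPM in December and 23.0 ± 2.48 TPM in October (SD, n = 3 each). The call was lost without October replicate 2 and without a filter on low signal. On scaffold 1 at 24989837 to 24995781 the December libraries differed from each other, with 3.41 and 42.7, against 91.0 and 133 in October (adjusted p = 0.0409, limma). This call was lost in 4 of 17 alternatives, namely both count tests, no filter on low signal and all 6 libraries on the deposited scale.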

How the data were processed

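Per the file headers, the deposited H3K4me3 values are a signal per region and library normalised by the authors with TMM (trimmed mean of M values), and the deposited RNA values are TPM per gene. Bowtie2, DiffBind, FastQC, Picard, TopHat and Trimmomatic were used per the submitters' processing notes, which give no roles. The sources used here give no versions, genome build or control subtraction. Of 29449 gene identifiers, 0 matched the 37283 genes of the RefSeq table.

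H3K4me3 columns were scaled to the same sum and log2(signal + 1) was fitted in limma 3.58.1 under R 4.3.3 (trended empirical Bayes), for regions with a deposited signal of 10 or more in 2 or more of the 4 libraries. RNA was tested the same way on log2(TPM + 1) in all 9 libraries, for the 18384 genes that reached 1 TPM in 3 or more of them. TPM keep no read totals, so depth behind RNA is unknown. Tests were two-sided, Benjamini-Hochberg adjusted over everything tested and called under 0.05. Because of the pseudocount, the fold changes, which are differences of log2(value + 1), understate changes at low values. A region was joined to a gene where it matched the window of exactly 1 gene. In each library 100% of values came out whole within 0.01 after division by the step. On these recovered reads edgeR 4.0.16 (quasi-likelihood) called 2819 regions and DESeq2 1.42.0 called 4637. Both tests assume read counts, which the recovered reads may not be. The limma fit of H3K4me3 was tested on simulated data with known changes, a fixed spread and no floor. The RNA fit and the count tests were not tested in this way. Alternatives covered scaling, filter, pseudocount, test, libraries in the fit, replicate block and single libraries left out.

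Members, classes and the rule for named regions were chosen with earlier results of these data known. The rule took the 8 largest gains and losses at well-marked regions, 4 each way with the largest product of both assays' changes, 3 each way called in opposite directions, 3 each way with the highest signal among 2-fold calls, regions that switch to or from the floor, the 3 longest runs, 3 each way with an identifier and 2 each way among longer regions.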

Additional observations from a re-analysis of the deposited data

How the results depend on the processing

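The number of regions called (3388) was 5473 on the deposited scale, 1124 with all 6 libraries on the deposited scale (added after seeing the data), 1655 without a filter and 5405 with the replicate block. Gains (1494) were 4410, 726, 587 and 2531 in these 4 settings, and losses (1894) were 1063, 398, 1068 and 2874. Gains of 2-fold or more (52) were 95 on the deposited scale, 112 with all 6 libraries on that scale, 80 with all 6 at equal sums, 84 with all 6 and library medians aligned, and 147 with the block. Losses of 2-fold or more (372) were 156 with all 6 on the deposited scale, 226 without a filter and 600 with the block. Leaving out 1 library gave 1471 to 3631 calls, 458 to 1798 gains, 1013 to 1833 losses, 23 to 308 gains and 242 to 481 losses of 2-fold or more. Genes higher in both assays (976) were 2204 on the deposited scale and 1492 with the block, and 317 to 1042 with 1 library left out. Genes lower in both (1240) were 754 on the deposited scale and 721 to 1188 with 1 library left out, and genes called in opposite directions (111) were 466, 252 with the block and 34 to 151. Regions that switch (5 gained and 8 lost) were 9 and 22 at a signal of 10, and 1 and 1 at a signal of 50. The cause was not tested. RNA calls (11117) were 10090 to 10395 with 1 library left out. Same-numbered libraries deviated together in H3K4me3 (r = 0.533). With 2 pairs and no label that ties them, whether the numbers pair the samples or mark a batch is not known. In RNA r was 0.00557, -0.0814 and -0.0332. The other counts stayed within 1.5 times. For the 57 named regions, 836 of 954 values kept their side of the threshold, 103 lost it, 15 gained it and 0 reversed. The blocked RNA fit called 10803 genes. Most named calls at the floor were lost when 1 library was left out, and the part of depth in this was not tested.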

Other observations

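Short genes lost the mark more often than long ones in these counts. Among single-gene regions split into 4 classes of equal size by gene length, a split added after the values had been seen, the class of the shortest genes (95 to 1659 bp) had 5.24% gained and 19.1% lost in December, and the class of the longest (4125 to 36290 bp) had 14.9% gained and 6.20% lost. Signal and RNA moved with length: the median signal was 109 in the shortest and 210 in the longest class, and the median RNA level 10.6 and 36.7 TPM. The window also reached 1500 bp into a gene and so ran past the end of genes shorter than that. The part of signal, RNA level and window in the counts was not tested.

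RNA of both genes was tested at 792 of the 1344 tested regions longer than the window. Among 80 gained ones with both genes tested, RNA rose at both genes in 26, at 1 gene with the other uncalled in 28 and in opposite directions in 12. Among 90 lost ones, RNA fell at both genes in 29, at 1 gene with the other uncalled in 35 and in opposite directions in 10. Over all 792, RNA rose at both genes in 104, at 1 gene in 209, fell at both in 69, at 1 in 147 and moved in opposite directions in 114.

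Neighbouring regions shared calls a little more often than all regions. After a gained region the next tested region was gained in 11.3% and lost in 9.67% of 1489 cases, against 9.82% and 12.4% overall. After a lost region the next was lost in 16.5% and gained in 9.78% of 1892 cases.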
